A study of Mus musculus with 4 samples.

Results

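Sohlh1, Sohlh2, Dmrt1, Dmrtb1, Neurog3, Sox3 and Lin28a are 7 regulators of the step at which spermatogonia leave the stem cell state and commit to differentiation. They were picked by symbol, and all 7 were found among the 31053 genes counted by single-cell RNA sequencing in 4 libraries from mouse testis. The study compared testis tissue in organ culture with testis that developed in the animal. Testes taken at 7 days postpartum (dpp) were cut into fragments and kept on agarose under a silicone ceiling chip, for 2 days in 1 group (the 2-day explant) and for 7 days in another (the 7-day explant). The groups without culture were testes taken at 9 dpp and at 14 dpp, so that the time in culture adds up to the age in each pair. Mice of all 4 groups were C57BL/6 animals with the Acr-Gfp transgene, a reporter of late germ cells that the in vivo groups carried too. Each group had 1 library, and the labels do not say how many animals were pooled. Differences between groups therefore have no replicate check, no test between groups was made, and all intervals cover counting error only.

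Spermatogonial stem cells sit within a pool of undifferentiated spermatogonia, from which cells advance under retinoic acid to the differentiating state, divide several times and enter meiosis. NEUROG3, a basic helix-loop-helix factor, and SOX3, an HMG-box factor, mark and help progenitors that are about to differentiate. SOHLH1 and SOHLH2 are partner basic helix-loop-helix factors that bind E-box sequences and are needed for spermatogonial differentiation. DMRT1 holds back premature meiosis in spermatogonia and also maintains Sertoli cell identity, and DMRTB1 (also called DMRT6) helps differentiating spermatogonia shut down their program before meiosis. LIN28A is an RNA-binding protein that blocks maturation of let-7 microRNAs, so it is not itself a transcription factor.

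The levels were read in germ cells, defined as kept cells with at least 2 unique molecular identifiers (UMIs, counted RNA molecules) of Ddx4 and Dazl together, both standard germ cell genes. That gate took 12331 of 23006 kept cells: 2814 in the 2-day explant, 2570 in the 7-day explant, 2732 at 9 dpp and 4215 at 14 dpp. The depth per germ cell differed, with medians of 3731 UMIs in the 2-day explant, 6838 in the 7-day explant, 11369 at 9 dpp and 7789 at 14 dpp. Levels are therefore given as CPM, the UMIs of a gene scaled to the summed UMIs of the same cells, here the germ cells of a library. Part of the gated cells also carried markers of somatic cells: 4.87% in the 2-day explant, 4.86% in the 7-day explant, 15.4% at 9 dpp and 20.8% at 14 dpp. All 8 Sertoli cell markers had UMIs in the gated cells of each library, and their summed level ran from 1079 CPM in the 2-day explant to 4366 CPM at 14 dpp. Pairs of libraries shared 35 to 86 cell barcodes, at most 1.35% of the smaller library.

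The upstream sequence of Sohlh1 is shown with that of Dmrtb1, because levels of Sohlh1 and Dmrt1 were highly correlated over germ cell stages while those of Dmrtb1 were not. Each runs from 5′ to 3′ on the gene's strand and ends at the base before the RefSeq start (GRCm38.p6). Capitals mark E-boxes (CANNTG) and the core of the DMRT binding motif (ACANTGT), both searched on either strand.
Sohlh1 (chr2:25847249-25847498, minus strand): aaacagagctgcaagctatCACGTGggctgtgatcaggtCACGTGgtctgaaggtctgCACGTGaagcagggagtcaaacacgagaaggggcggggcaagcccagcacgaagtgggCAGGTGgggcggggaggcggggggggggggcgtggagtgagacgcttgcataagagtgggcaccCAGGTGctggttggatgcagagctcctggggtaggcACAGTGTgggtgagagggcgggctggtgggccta
Dmrtb1 (chr4:107684231-107684480, minus strand): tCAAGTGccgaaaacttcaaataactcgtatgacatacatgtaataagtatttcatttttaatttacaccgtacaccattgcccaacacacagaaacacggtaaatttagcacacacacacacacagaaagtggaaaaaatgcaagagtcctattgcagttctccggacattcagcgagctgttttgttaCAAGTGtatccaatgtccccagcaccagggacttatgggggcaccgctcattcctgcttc
The Sohlh1 window held 5 E-boxes, of which 3 read CACGTG, and 1 DMRT core. CACGTG occurred in 6.02% of 32851 RefSeq windows of the same length, the DMRT core in 6.47% and any CANNTG in 66.2%. The Dmrtb1 window shown held 2 E-boxes, neither of them CACGTG. A second Dmrtb1 start had 3 E-boxes, Sohlh2 and Neurog3 had 1 each and Lin28a had 0, with no CACGTG and no DMRT core in any of these windows. These letter matches describe the windows and do not show binding. Dmrt1 and Sox3 had no entry.

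Sohlh1 (ENSMUSG00000059625, GRCm38 chr2:25842995-25847248) was at 211 CPM in germ cells at 9 dpp (95% Poisson interval 206 to 215) and at 199 CPM in the 2-day explant (191 to 207). At 14 dpp it was at 131 CPM (128 to 134), and in the 7-day explant at 90.7 CPM (86.8 to 94.7). Summed over germ cells, the young pair lay close together, though its ratios within classes of germ cells, given below, went both ways. The older pair lay below both of its younger counterparts, with the 7-day explant lowest. Sohlh2 (ENSMUSG00000027794, chr3:55182028-55209957) ran the other way between culture and animal. It was at 85.7 CPM in the 2-day explant and 61.8 CPM at 9 dpp, and at 66.6 CPM in the 7-day explant and 51.0 CPM at 14 dpp. Of the 7 genes it had the higher level in the explant both times over germ cells, by a log2 ratio of 0.47 (95% interval 0.37 to 0.58) in the younger and 0.38 (0.29 to 0.48) in the older pair. Without the cells that carried somatic markers, the ratio of the older pair was 0.18. Over the whole libraries the ratios were −0.07 and 0.05, with intervals that included 0.

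Dmrt1 (ENSMUSG00000024837, chr19:25505618-25604329) was at 341 CPM in germ cells at 9 dpp, 282 CPM in the 2-day explant, 238 CPM at 14 dpp and, in the older explant, 191 CPM. The order of the 4 libraries was that of Sohlh1, and their Poisson intervals did not overlap. Dmrtb1 (ENSMUSG00000028610, chr4:107676290-107684230) had another order. It was at 65.5 CPM at 9 dpp (62.8 to 68.2), 74.1 CPM at 14 dpp (71.6 to 76.7) and 78.2 CPM in the 7-day explant (74.6 to 81.9), but at 21.8 CPM in the 2-day explant (19.3 to 24.5). The 2-day explant thus stood well below the other libraries, which lay within a narrow band.

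The progenitor factors and Lin28a had few UMIs. Neurog3 (ENSMUSG00000044312, chr10:62133090-62134763) was at 12.7 CPM at 9 dpp (449 UMIs), 6.05 CPM at 14 dpp (263 UMIs), 4.68 CPM in the 2-day explant (61 UMIs) and 3.49 CPM in the 7-day explant (79 UMIs). The gene overlaps Fam241b on the opposite strand, and whether the counting used strand is not given in the sources used here. Sox3 (ENSMUSG00000045179, chrX:60891366-60893430) was at 18.8 CPM at 9 dpp, 12.3 CPM in the 2-day explant, 10.0 CPM at 14 dpp and, in the older explant, 8.31 CPM. Lin28a (ENSMUSG00000050966, chr4:134003330-134018841) was at 23.2 CPM at 9 dpp, 16.0 CPM at 14 dpp, 11.7 CPM in the 7-day explant and 9.83 CPM in the 2-day explant. All 3 genes were highest at 9 dpp. Lin28a was lower in both cultures than in both in vivo libraries, and the intervals of the cultures, 10.3 to 13.2 CPM and 8.20 to 11.7 CPM, overlapped.

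**Figure D1:**
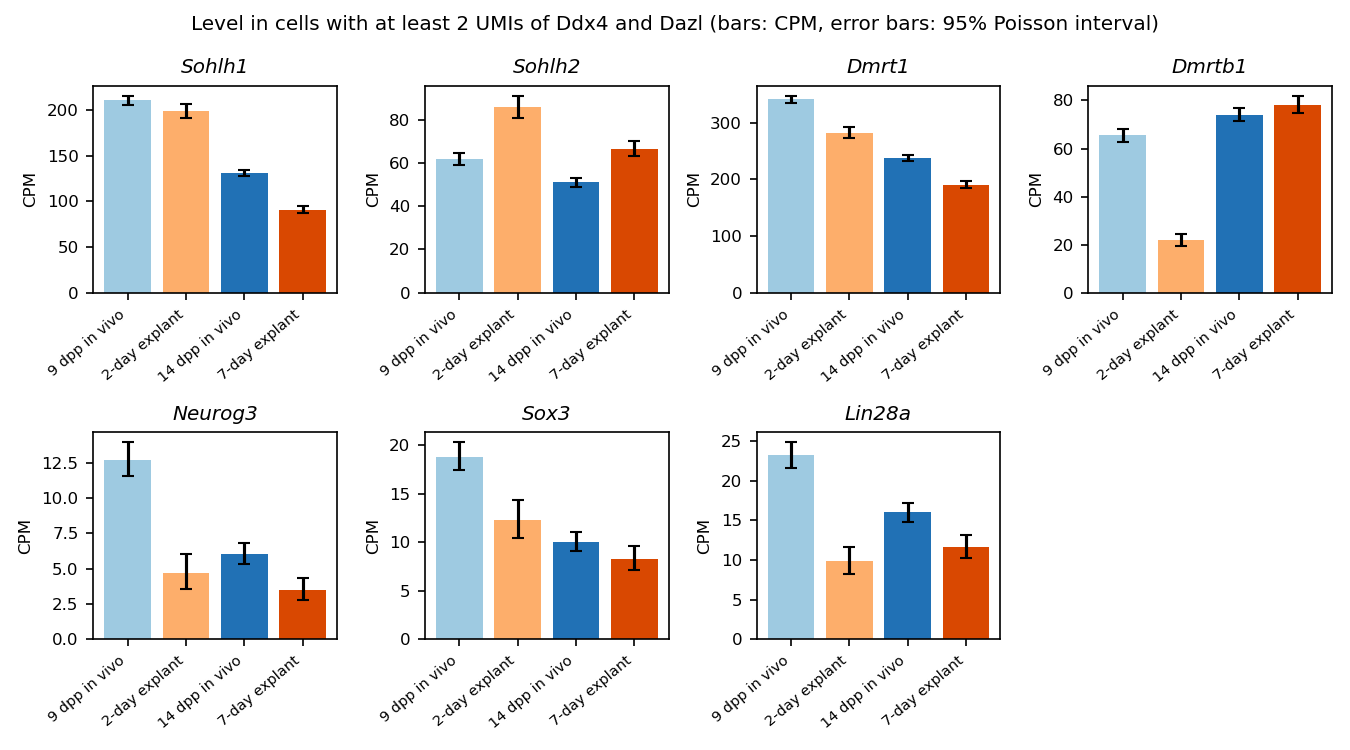
Level of each gene in germ cells of the 4 libraries, in CPM on linear axes that start at 0; bars are the single library of each group and error bars are 95% Poisson intervals. Dmrtb1 is low in the 2-day explant (21.8 CPM) and between 65.5 and 78.2 CPM in the other libraries, while Neurog3, Sox3 and Lin28a are highest at 9 dpp.

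In the younger pair, the 2-day explant against 9 dpp, 6 of the 7 genes were lower in the culture and 3 were at least 2-fold lower. These were Dmrtb1, with a log2 ratio of −1.59 (95% interval −1.77 to −1.41), Neurog3 with −1.44 (−1.85 to −1.05) and Lin28a with −1.24 (−1.52 to −0.97). Sox3 was at −0.62, Dmrt1 at −0.27 and Sohlh1 at −0.08. Of the 15325 genes with at least 50 UMIs in germ cells over the 4 libraries, 8.25% were at least 2-fold lower and 5.14% at least 2-fold higher in this pair. A ratio above 0 was seen in 48.1% of them. The median over the 7 genes was −0.62, against −0.02 over all genes. The Sohlh1 ratio was small and moved between −0.19 with every cell weighted equally and −0.03 with a stricter cell filter. The 3 ratios past 2-fold stayed past 2-fold in all 10 alternatives tried for each.

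In germ cells of the older pair, the 7-day explant against 14 dpp, 0 of the 7 genes differed by 2-fold, where 8.14% of all genes were at least 2-fold lower and 3.33% at least 2-fold higher. Neurog3 was nearest to the lower limit, with a log2 ratio of −0.79 (−1.17 to −0.42). It passed 2-fold in 3 of 10 alternatives, at −1.12 with the germ cell gate applied after drawing 2000 UMIs per cell, −1.02 with every cell weighted equally and barely past the limit without cells carrying somatic markers. It was followed by Sohlh1 with −0.53 and Lin28a with −0.46. Dmrtb1 had a ratio of 0.08 (−0.01 to 0.16) over all germ cells, which was within counting error. Its ratios within classes of germ cells, given below, went both ways. The sign over all germ cells depended on the cells taken: the ratio was −0.15 without cells that carried somatic markers and −0.03 under the stricter filter. The median over the 7 genes was −0.32, against 0.02 over all genes. Without the cells carrying somatic markers it was −0.56, with Dmrt1 moving from −0.32 to −0.56. The Sox3 ratio of −0.27 (−0.53 to −0.02) was 0.10 with every cell weighted equally.

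Over time in the animal, from 9 to 14 dpp, 6 of the 7 genes were lower at 14 dpp, and Neurog3 passed 2-fold with a log2 ratio of −1.07 (−1.30 to −0.85). Sox3 was at −0.91, Sohlh1 at −0.68, Lin28a at −0.53, Dmrt1 at −0.52 and Sohlh2 at −0.28. Dmrtb1 was the member on the other side, at 0.18 (0.10 to 0.26). Of all genes, 5.27% were at least 2-fold lower and 8.55% at least 2-fold higher. The Neurog3 ratio ranged from −1.27 to −0.93 over the alternatives. The median over the 7 genes was −0.53 and, without the cells that carried somatic markers, −0.32, against −0.06 over all genes.

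Between the 2 cultures, Dmrtb1 was higher at 7 days by a log2 ratio of 1.84 (1.66 to 2.03), a 3.59-fold difference, and Sohlh1 was lower at 7 days by −1.13 (−1.22 to −1.05). Over all genes, 8.67% were at least 2-fold higher and 7% at least 2-fold lower. The Dmrtb1 ratio lay between 1.76 and 1.94 and the Sohlh1 ratio between −1.23 and −1.02 over the alternatives. The Sohlh1 ratio was not the same in each class of germ cells. Dmrt1 and Sox3 were each at −0.56 and Sohlh2 at −0.36. The intervals of Neurog3 (−0.92 to 0.08) and Lin28a (−0.06 to 0.56) included 0. The median over the 7 genes was −0.42, against −0.03 over all genes. The 4 comparisons share libraries, so a low or high value in 1 library enters more than 1 of them. Beyond the values given without those cells, the part of cells carrying somatic markers in these ratios was not tested.

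**Figure D2:**
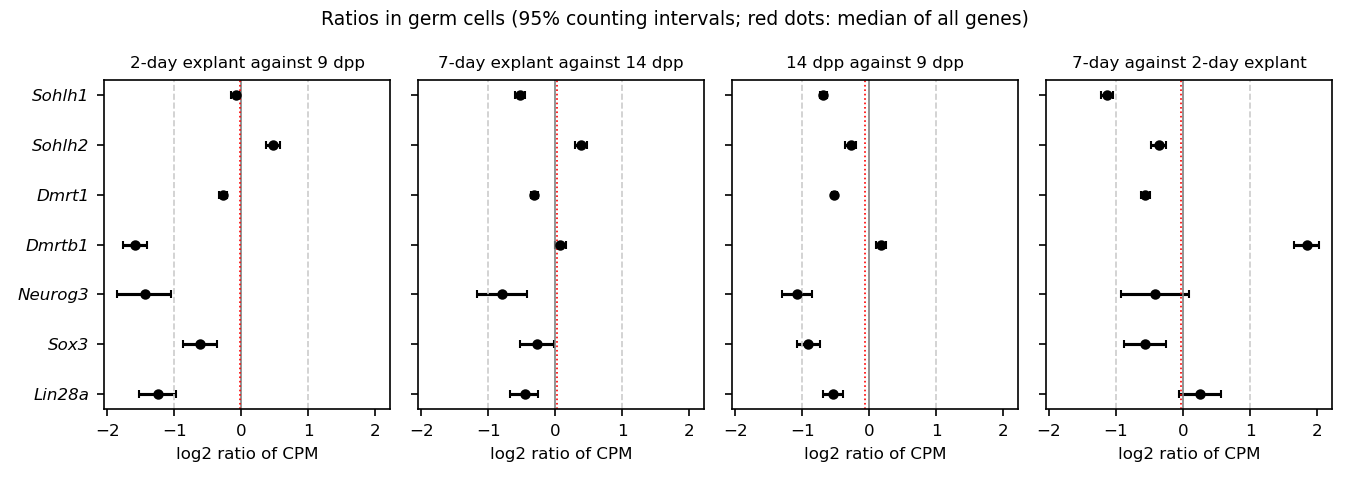
Log2 ratios of CPM in germ cells for the 4 comparisons, first group against second, with 95% counting intervals; dashed lines mark 2-fold, the dotted red line the median of all genes. Dmrtb1, Neurog3 and Lin28a lie left of the 2-fold line in the 2-day explant against 9 dpp, and no gene does in the 7-day explant against 14 dpp.

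A sum over germ cells does not separate fewer cells of a stage from less RNA per cell, so the germ cells were clustered and the clusters named from stage markers that did not include the 7 genes. Undifferentiated spermatogonia-like cells were 638 of the germ cells at 9 dpp (23.4%) and 462 at 14 dpp (11.0%), but 73 in the 2-day explant (2.59%) and 157 in the 7-day explant (6.11%). Differentiating spermatogonia-like cells were 66.1% of the germ cells in the 2-day explant, 50% at 9 dpp, 44.3% in the 7-day explant and 35.5% at 14 dpp. Preleptotene-like cells made up 9.73% to 18.6% of the germ cells of a library and leptotene or zygotene-like cells 3.33% to 32.9%. Pachytene-like cells were found at 14 dpp (100 cells) and in the 7-day explant (67 cells). With a Leiden resolution of 0.5 the class held 127 and 126 cells, so the libraries are not ranked by it. Another 995 germ cells fell in clusters led by somatic markers and stayed unnamed. Different clusters held most of the differentiating class in culture (clusters 0, 1 and 14) and in the animal (clusters 2, 3 and 7), and cluster 10 of the preleptotene class scored nearly as high for the differentiating markers (0.414 against 0.424).

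Outside the 2-day explant, Neurog3 was highest in the undifferentiated spermatogonia-like class. Its level there was 37.0 CPM at 9 dpp, 30.2 CPM at 14 dpp and, in the older explant, 24.2 CPM, between 7.50 and 10.3 times that of the differentiating class in the same library. Within the class it was found mainly in cluster 4, led by Upp1, Egr4 and Nanos3, with 54.0 CPM at 9 dpp, 41.9 CPM at 14 dpp and, in the older explant, 30.9 CPM. In cluster 11, which holds the stem cell genes Gfra1 and Ret among its leading genes, the same libraries had 2.45, 5.69 and 12.8 CPM. Over the undifferentiated class the 7-day explant and 14 dpp did not differ beyond counting error (log2 ratio −0.32, −0.77 to 0.12). In the differentiating class the ratio was −0.77 (−1.56 to −0.04), from 21 and 64 UMIs, and within its cluster 1 it was 0.88 (−1.77 to 6.26), with 1 UMI at 14 dpp. In the 2-day explant cluster 4 had only 7 cells, and the whole undifferentiated class had 2 Neurog3 UMIs (4.89 CPM, 0.59 to 17.7). Its differentiating class held 58 of the 61 Neurog3 UMIs, with the gene at 6.29 CPM against 4.52 CPM at 9 dpp (log2 ratio 0.48, −0.04 to 0.98). Within cluster 1, which held 57 of those UMIs, the ratio had the opposite sign, with 8.98 against 18.5 CPM (−1.04, −2.18 to 0.34), and both intervals included 0.

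Lin28a was also highest in the undifferentiated class, with 45.2 CPM at 9 dpp, 49.7 CPM at 14 dpp, 64.0 CPM in the 7-day explant and 31.8 CPM in the 2-day explant. In the differentiating class it was at 20.6 CPM at 9 dpp and 22.5 CPM at 14 dpp, but at 11.7 CPM in the 2-day explant and 12.4 CPM in the 7-day explant. Over the class the log2 ratios were −0.81 (−1.14 to −0.50) and −0.86 (−1.19 to −0.55) for the younger and the older pair. Within cluster 1 of this class the older pair was at 41.9 CPM in the 7-day explant (159 cells) and 49.0 CPM at 14 dpp (42 cells). The interval of that log2 ratio (−0.23, −1.17 to 0.88) included both 0 and the class ratio, so it cannot tell them apart. The younger pair differed beyond counting error in cluster 1, with 16.9 CPM in the 2-day explant and 34.3 CPM at 9 dpp (−1.03, −1.86 to −0.07). In the undifferentiated class the older pair had the opposite sign, 0.36 (0.07 to 0.65). Sox3 was at nearly the same level in both spermatogonial classes at 9 dpp, 22.8 CPM in the undifferentiated and 23.3 CPM in the differentiating class, which did not differ beyond counting error. At 14 dpp and in the 7-day explant it was higher in the undifferentiated class (22.1 and 22.0 CPM) than in the differentiating class (16.3 and 13.7 CPM). The 2-day explant had the reverse order, 7.33 CPM from 3 UMIs against 16.1 CPM, within counting error.

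Sohlh1 was highest in the undifferentiated class at 9 dpp (335 CPM), 14 dpp (318 CPM) and 7 days of culture (276 CPM), lower in the differentiating class and lowest at leptotene or zygotene and beyond, where the former class was between 3.13 and 5.97 CPM. In the 2-day explant the undifferentiated (235 CPM) and differentiating (262 CPM) classes overlapped in their intervals. Against 9 dpp, the 2-day explant was lower in the undifferentiated class (log2 ratio −0.51, −0.82 to −0.22) and the preleptotene class (−1.20, −1.72 to −0.71). It was higher in the differentiating class (0.24, 0.16 to 0.31). Within the differentiating class Sohlh1 was at 223 CPM at 9 dpp and 206 CPM at 14 dpp, and at 145 CPM in the 7-day explant. In cluster 1 of this class, which all 4 libraries share, it was at 221 CPM in the 7-day explant and 191 CPM at 14 dpp. That log2 ratio, 0.21 (−0.26 to 0.72), had the opposite sign to the −0.51 over the class and an interval that included 0. Between the 2 cultures, the 7-day explant was lower in Sohlh1 over the differentiating class (−0.86) and within its cluster 1 (−0.55, −0.70 to −0.41), but not beyond counting error within cluster 0 (−0.07, −0.27 to 0.13). In the preleptotene class it was higher, at 56.9 CPM against 28.1 CPM (1.02, 0.48 to 1.58). Of that class, cluster 10 held 67 of 250 cells at 7 days, 21 of 524 at 2 days and 199 of 428 at 9 dpp. What part this make-up had in the preleptotene ratios was not tested. Like Sohlh1, Dmrt1 was lowest from leptotene or zygotene on, with 7.09 to 14.9 CPM in that class after 99.8 to 223 CPM in the preleptotene class. Unlike Sohlh1, it was higher in the differentiating than in the undifferentiated class at 9 dpp (433 against 340 CPM, log2 ratio 0.35, 0.29 to 0.41) and at 14 dpp (404 against 342 CPM, 0.24, 0.17 to 0.31). The 2-day explant had the same order (log2 ratio 0.36, 0.09 to 0.64). In the 7-day explant these classes did not differ beyond counting error (335 against 357 CPM). Sohlh2 did not follow these stages. In the differentiating class it was higher in the explant in the younger pair (log2 ratio 0.42, 0.30 to 0.55), though not within cluster 1 (−0.22, −0.63 to 0.22), and the older pair did not differ beyond counting error (0.02, −0.12 to 0.17). The older pair was higher in the explant in the leptotene or zygotene class (0.50, 0.28 to 0.72) and the pachytene class (0.83, 0.41 to 1.25). In its undifferentiated and preleptotene classes the intervals included 0. Sohlh2 was at 28.4 to 81.8 CPM in leptotene or zygotene-like cells, and pachytene-like cells still had 60.2 CPM in the 7-day explant and 33.8 CPM at 14 dpp, against 0 CPM (interval up to 2.32) and 1.37 CPM of Sohlh1, its partner.

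Dmrtb1 was highest in the differentiating class in every library. In the undifferentiated class it was at 2.32 CPM at 9 dpp, 4.91 CPM at 14 dpp and, in the older explant, 9.08 CPM. In the 2-day explant that class was at 14.7 CPM (5.38 to 31.9) from 6 UMIs, above 9 dpp by a log2 ratio of 2.66 (1.07 to 4.00). In the differentiating class it was at 121 CPM at 9 dpp, 155 CPM at 14 dpp and, in the older explant, 134 CPM, against 26.4 CPM in the 2-day explant. The 2-day explant was below 9 dpp by a log2 ratio of −2.20 (−2.40 to −2.01), a larger difference than over all germ cells. The 7-day explant was below 14 dpp in the differentiating class (−0.21, −0.31 to −0.11) and the pachytene class (−0.67, −1.01 to −0.34). It was above 14 dpp in the leptotene or zygotene class (1.01, 0.70 to 1.33) and the undifferentiated class (0.89, 0.02 to 1.73). The preleptotene interval of this pair included 0. At 14 dpp a second high point was seen in pachytene-like cells, with 101 CPM against 26.0 CPM in leptotene or zygotene-like cells. In the 7-day explant no second high point was seen, as the pachytene class, at 63.4 CPM (51.6 to 77.0), overlapped the leptotene or zygotene class, at 52.3 CPM (46.7 to 58.3). Cluster 13 held 310 of the 846 leptotene or zygotene-like cells in the 7-day explant and 129 of 812 at 14 dpp. The pachytene count also moved with the Leiden resolution, so culture and animal are not compared on this second high point. Because different clusters carry the differentiating class in culture and in the animal, its comparison was repeated within clusters. In cluster 0, shared by the cultures, Dmrtb1 was at 66.5 CPM at 2 days (703 cells) and 171 CPM at 7 days (635 cells). In cluster 1, Dmrtb1 was at 8.82 CPM in the 2-day explant (1065 cells), 40.5 CPM in the 7-day explant (159 cells), 34.3 CPM at 9 dpp (74 cells) and 49.0 CPM at 14 dpp (42 cells). The 2-day explant was thus lowest in both clusters, and its log2 ratio to 9 dpp within cluster 1 was −1.96 (−2.85 to −0.96).

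**Figure D3:**
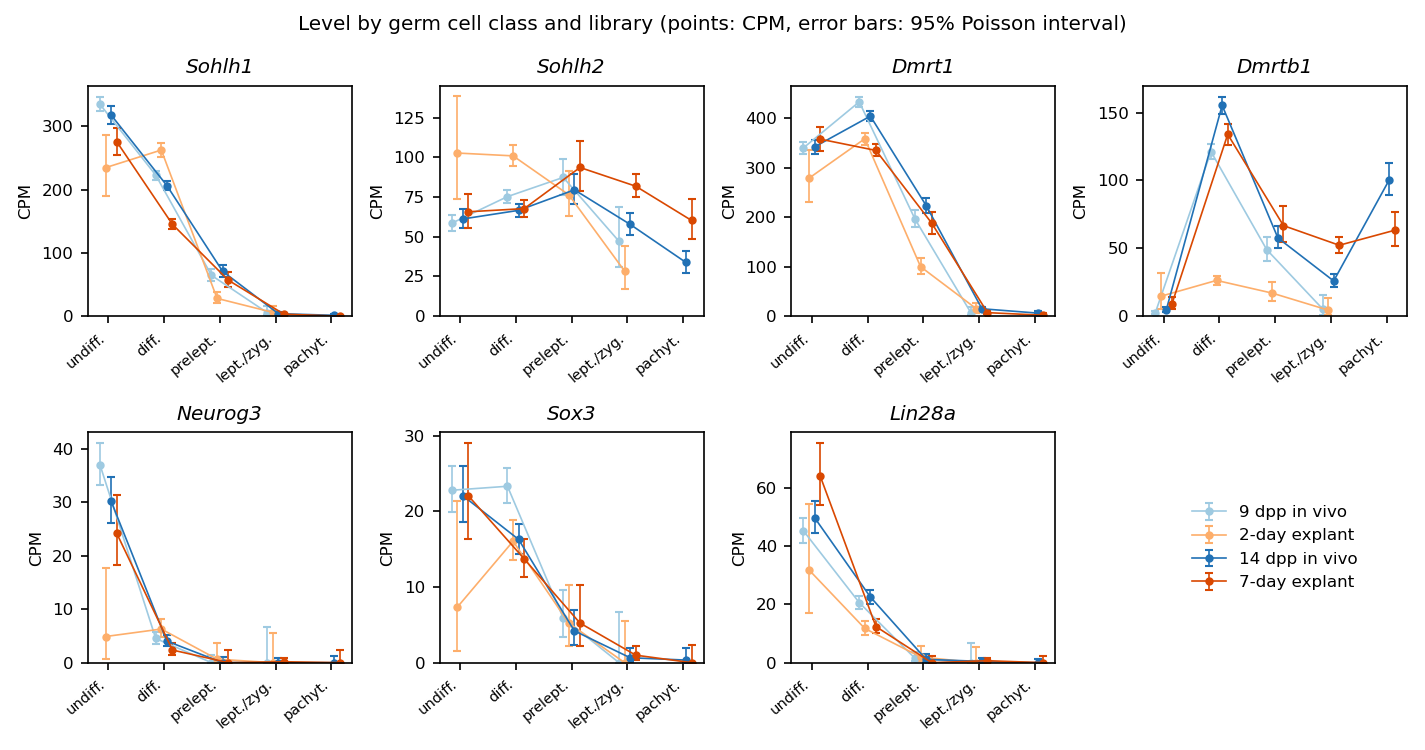
Level of each gene in 5 classes of germ cells, in CPM on linear axes, by library; points are the class sums, error bars 95% Poisson intervals, and lines only join the points of a library. Sohlh1 and Dmrt1 are below 15 CPM from leptotene or zygotene on, Sohlh2 is at 28.4 CPM or more up to the pachytene class, Neurog3 and Lin28a are highest in the undifferentiated class except for Neurog3 in the 2-day explant, and Dmrtb1 peaks in the differentiating class.

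**Figure D4:**
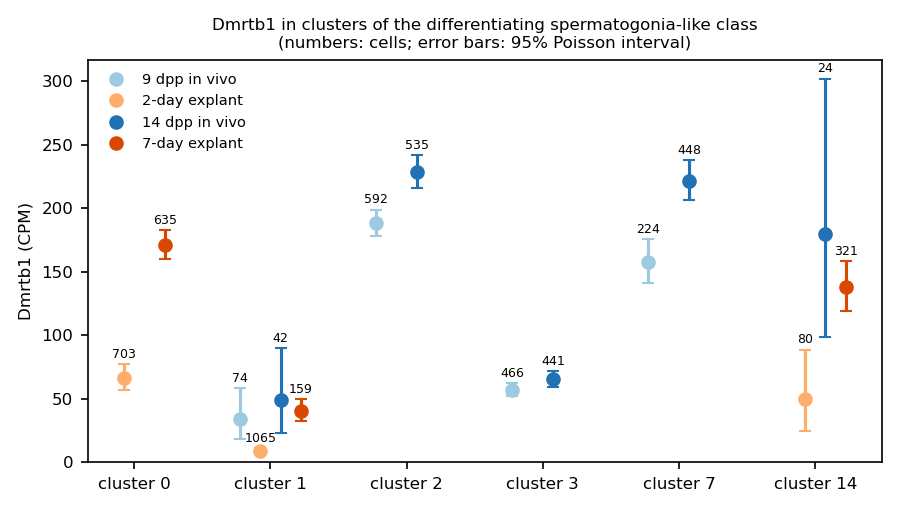
Dmrtb1 level in CPM within each cluster of the differentiating spermatogonia-like class, for libraries with at least 20 cells in the cluster; numbers give the cells, error bars 95% Poisson intervals. The 2-day explant is lowest in clusters 0, 1 and 14, and clusters 2, 3 and 7 hold in vivo cells, so no culture value is plotted there.

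Shares of cells with a UMI were compared at equal depth, after drawing 2000 UMIs from each cell and leaving out 384, 81, 25 and 60 shallower germ cells in the 2-day explant, the 7-day explant, 9 dpp and 14 dpp. Dmrtb1 was then found in 4.77% of the germ cells of the 2-day explant (95% Clopper-Pearson interval 3.96% to 5.70%), 12.4% at 9 dpp, 14.6% in the 7-day explant and 12.6% at 14 dpp. At full depth the shares were 8.49%, 37.1%, 40.0% and 34.6%, in the same order. Neurog3 was found in 0.74% of the 2-day explant, 0.48% of the 7-day explant, 1.63% of 9 dpp and 0.75% of 14 dpp at equal depth. As a background, cells with interstitial markers held a Dmrtb1 UMI in 0.13% to 0.35% of cells, and a Neurog3 UMI in 0 or 1 cells per library. Sohlh1 was found in 25.7%, 13.5%, 29.7% and 17.8% of germ cells in the 2-day explant, the 7-day explant, 9 dpp and 14 dpp, and in 0.20% to 0.76% of interstitial-marker cells. Sox3 shares, 1.47% to 2.70%, and Lin28a shares, 1.48% to 3.77%, rest on 36 to 102 cells per library. The Sox3 shares do not have the order of the CPM, so no order is read from them.

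Dmrt1 was the member with a second source in the testis. In cells with Sertoli markers outside the germ cell gate it was at 146 CPM at 9 dpp (139 to 153), 85.3 CPM in the 2-day explant (78.2 to 92.8), 100.1 CPM at 14 dpp (92.0 to 109) and 94.1 CPM in the 7-day explant (85.8 to 103). The 9 dpp library was highest and the other 3 were closer together. The log2 ratio of the 2-day explant to 9 dpp was −0.77 (−0.92 to −0.63), and that of the 7-day explant to 14 dpp was −0.09 (−0.27 to 0.09). At equal depth 15.3% to 27.5% of Sertoli-marker cells held a Dmrt1 UMI, against 0.34% to 1.23% of interstitial-marker cells. Sertoli-marker cells contributed 5.09% to 12.4% of all Dmrt1 UMIs, and cells in the germ cell gate 84.2% to 94.4%. The gate itself took in the unnamed clusters led by somatic markers, most of whose cells were in Sertoli-led clusters, and these held 682 Dmrt1 UMIs at 9 dpp and 802 at 14 dpp. Those UMIs count towards the gate and not towards the Sertoli-marker cells. For the other 6 genes, germ cells held 87.9% to 99.6% of the UMIs.

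**Figure D5:**
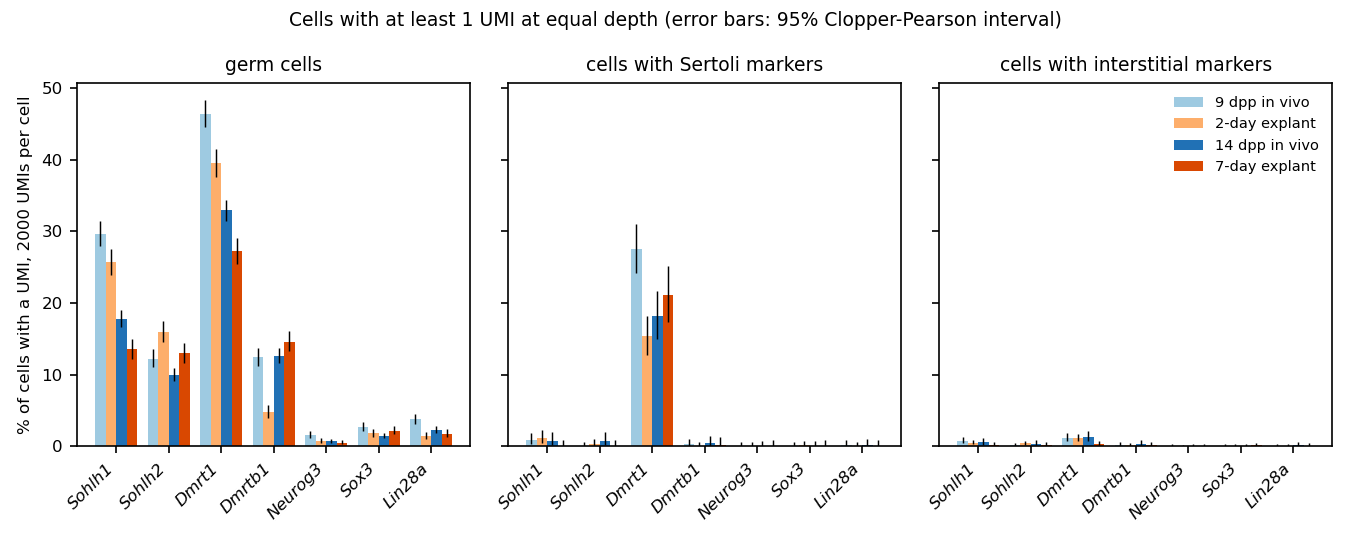
Percent of cells with at least 1 UMI after drawing 2000 UMIs from each cell, for germ cells, cells with Sertoli markers and cells with interstitial markers; error bars are 95% Clopper-Pearson intervals. Dmrt1 is the member seen in Sertoli-marker cells (15.3% to 27.5%), and Dmrtb1 is found in 4.77% of germ cells in the 2-day explant.

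Over the whole libraries, where the share of germ cells enters as well, Dmrtb1 was at 9.56 CPM in the 2-day explant, 40.7 CPM at 9 dpp, 49.0 CPM in the 7-day explant and 57.8 CPM at 14 dpp. Germ cells were 41.0% of the kept cells in the 2-day explant, 53.2% at 9 dpp, 53.4% in the 7-day explant and 68.1% at 14 dpp. The median log2 ratio over the 7 genes was −1.05 for the younger and −0.57 for the older pair, against −0.15 and 0.00 over all genes. Both are further from 0 than in germ cells alone. Neurog3 in the older pair was at −1.12 (−1.50 to −0.76), and between −1.37 and −0.85 over the alternatives. Sox3 in the younger pair was at −1.05 (−1.29 to −0.81), and between −1.36 and −0.67.

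Genes were also seen together in single cells. Of the 105 germ cells with a Neurog3 UMI at equal depth, 57.1% also held Sohlh1, against 21.2% of all germ cells, and 12.4% held Lin28a, against 2.34%. The Sohlh1 share was above that of all germ cells in 4 of 4 libraries and the Lin28a share in 3 of 4. Dmrtb1 was found in 2 of the 105 cells (1.90%, against 11.4% of all germ cells), and its share exceeded that of all germ cells in 0 of 4 libraries. By library, only 9 dpp had an interval that excluded the share of all germ cells (0 of 44 cells, up to 8.04%, against 12.4%). All germ cells also include the preleptotene and later classes, which held almost no Neurog3 UMIs. Cells with a Lin28a UMI held Sohlh1 in 44.9% and Dmrt1 in 54.0%, against 21.2% and 36.2% of all germ cells. Sohlh1 and Sohlh2 were counted together in 354 cells, 14.2% of the Sohlh1 cells, against 12.4% of all germ cells.

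Across the 18 points formed by a class and a library, levels of Sohlh1 and Dmrt1 had a Pearson correlation of 0.98 on the log2(CPM + 1) scale, and those of Neurog3 and Lin28a 0.94. Dmrtb1 had correlations of −0.41 to 0.28 with the other 6. The points share libraries and stages, so these values are descriptions. Among all genes, the most similar patterns were those of Eif4ebp1, Lgmn and Rab6b for Sohlh1 (0.99 each), Pms1, Nit2 and Tmem256 for Dmrt1 (0.99, 0.99 and 0.98) and Gab1, Qtrt2 and Dlg3 for Sohlh2 (0.89, 0.87 and 0.87). For Dmrtb1 they were Mlf2 (0.94), Atp5h (0.92) and Mrfap1 (0.91). For Neurog3 they were Hoxb7, Vwa2 and Krt27, for Sox3 Rspo4, Knop1 and Lrrc47, and for Lin28a Rimkla, Kazn and Grb7, all at 0.97 to 0.99.

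Other genes of the pathway were read from lists. Of 14 genes of undifferentiated spermatogonia, most of which also named the class, 0 were higher in the 2-day explant than at 9 dpp and 8 were at least 2-fold lower, with a median log2 ratio of −1.07. Of all genes, 48.1% were higher and 8.25% at least 2-fold lower, with a median of −0.02. Nanos3, an RNA-binding protein of progenitors, was at 2.84 CPM against 31.6 CPM, Upp1 at 7.37 against 41.7 CPM, and Id4, a helix-loop-helix inhibitor of stem cells, at 8.21 against 26.1 CPM. In the older pair 3 of the 14 were at least 2-fold lower, against 8.14% of all genes, and the median was −0.30, against 0.02. Utf1, a chromatin protein, was at 3.05 CPM in the 7-day explant and 16.7 CPM at 14 dpp, while Id4 was at 43.7 and 28.3 CPM. The low Neurog3 and Lin28a levels of the 2-day explant were thus seen beside low levels of this list and few cells of the undifferentiated class. How far that smaller class accounts for the levels over all germ cells was not tested.

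The 10 genes of differentiating spermatogonia had a median of −0.06 in the younger pair, with 5 above 0 and 5 below. The median over all genes was −0.02, with 48.1% above 0. Stra8, the retinoic acid target that opens meiosis, was at 1178 CPM in the 2-day explant and 543 CPM at 9 dpp, a log2 ratio of 1.12. Kit, the receptor that defines differentiating spermatogonia, was at 35.9 and 33.8 CPM, and Rarg, a retinoic acid receptor, was lower at 4.99 against 16.0 CPM. Esx1 (−0.41), Ccnd2 (−0.39), Crabp1 (−0.29) and Uchl1 (−0.21) were lower as well, while Taf4b (0.41), Rhox13 (0.22) and Dnmt3b (0.08) were above 0. Whether the low Dmrtb1 level of the 2-day explant is tied to these genes was not tested. In the older pair the list's median was −0.29, against 0.02 over all genes. Of its genes 0 of 10 passed 2-fold, where 8.14% of all genes were at least 2-fold lower and 3.33% higher, so the count is near that background.

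Among 7 other genes of the DMRT family, 3 were at least 2-fold lower in the younger pair and 0 higher, where 8.25% and 5.14% of all genes were. In the older pair 2 were at least 2-fold lower, Dmrtc1a at −3.21 and Dmrtc1b at −4.76, and 1 was higher, Dmrta2 at 1.11, where 8.14% and 3.33% of all genes were. Dmrtc2, a meiotic member of the family, was at 45.6 CPM in the 2-day explant and 26.3 CPM at 9 dpp, and at 103 CPM in the 7-day explant and 80.9 CPM at 14 dpp. Dmrtc1a and Dmrtc1b are near-identical copies whose counts may be split, so their values are uncertain. Of 7 genes for E proteins, which pair with SOHLH and NEUROG3 factors, and for the ID proteins that block them, 1 was at least 2-fold lower in the younger pair (Id4) and 2 in the older pair, Id2 and Id3. The E protein genes Tcf3 and Tcf12 had log2 ratios of 0.04 and 0.25 in the younger pair and 0.01 and −0.06 in the older pair. Of 4 genes around LIN28 and let-7, 0 passed 2-fold in either pair. Lin28b, the paralog of Lin28a, was at 23.9 CPM in the 2-day explant and 23.0 CPM at 9 dpp, in contrast to Lin28a in the same cells.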

How the data were processed

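The deposited matrices held raw UMI counts per gene and cell barcode, which the authors made with Cell Ranger 3.0.2 on genome build mm10, per the submitters' processing notes. Gene symbols (column 2 of the gene lists) and barcodes came with the deposited matrices. The annotation, strand setting and cell calling settings are not given in the sources used here. Per the labels, libraries came from the Chromium Single Cell 3′ v2 kit; their preparation text speaks of female gonads and the culture protocol is repeated for the in vivo samples. Of the gene identifiers, 31011 were found in GENCODE M21 (GRCm38), which gave the positions, and 42 were not.

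The cell filter asked for 500 or more genes and no more than 20% mitochondrial UMIs, and all doublets called by Scrublet (expected rate 6%, scanpy 1.11.5), 2.02% to 3.70% of the cells passing the filter, were removed. This left 6866, 4810, 5138 and 6192 cells with 31996927, 37067185, 57372809 and 56180024 UMIs in the 2-day explant, the 7-day explant, 9 dpp and 14 dpp. CPM are summed UMIs over the summed total of the same cells, and have exact Poisson intervals, shares exact Clopper-Pearson intervals and log2 ratios exact conditional binomial intervals, all at 95%. A library at 0 UMIs was set to a floor of 3 UMIs in a ratio. The script for ratios was tested on simulated data. Sertoli- and interstitial-marker cells had at least 5 UMIs from at least 3 markers of that list and, outside the gate, more than of the other list. Germ cells were clustered with Leiden (leidenalg 0.10.2, resolution 1, 20 clusters) on 2000 variable genes, 30 principal components and 20 neighbours, without the 7 genes. A cluster was named for the class whose markers had the best mean relative level, if 3 or more were detected. Clusters whose best class was somatic stayed unnamed, which was decided with the data in view. TMM factors came from edgeR 4.0.16 (R 4.3.3). The genes with the most similar pattern were the 3 with the highest correlation over classes with at least 20 cells in a library. All 7 genes are named; others come from these lists. Of other list genes, those named were chosen after their values were seen. The members and lists were chosen with earlier results of these data known.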

Additional observations from a re-analysis of the deposited data

How the results depend on the processing

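Each group had 1 library, depth per germ cell differed 3.05-fold between libraries, and Neurog3, Sox3 and Lin28a rest on 61 to 819 UMIs. No paired analysis was possible because the groups shared only replicate number 1. The median log2 ratio over the 7 genes stayed within its counting range in 55 of 64 alternative values, and its sign changed in 0. The other 9 were as follows. In germ cells of the 7-day explant against 14 dpp (−0.32), it was −0.45 with a gate of 5 UMIs, −0.51 with the gate applied after drawing 2000 UMIs, −0.56 without cells carrying somatic markers and −0.52 with at least 1000 genes and at most 10% mitochondrial UMIs per cell. In germ cells of 14 dpp against 9 dpp (−0.53), it was −0.32 without cells carrying somatic markers. Over whole libraries, the stricter filter gave −1.36 for the 2-day explant against 9 dpp (−1.05), −0.89 for the 7-day explant against 14 dpp (−0.57) and −0.23 for 14 dpp against 9 dpp (−0.29), and equal weight per cell gave −0.67 for the 2-day explant against 9 dpp. The cause was not tested. Of single-gene ratios past 2-fold, 87 of 96 alternative values stayed past it and 96 of 96 kept their sign. TMM factors shifted the median of all genes by 0.14 in the 2-day explant against 9 dpp over whole libraries. With a Leiden resolution of 0.5, 116 of 126 class levels stayed within their counting intervals. Shares at a depth of 1000 UMIs were lower, as fewer UMIs were drawn.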
